A study of Osmanthus fragrans with 6 samples.

Results

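Petals of sweet osmanthus in full bloom of flowering round 2 (full 2) were compared with petals in late full bloom of round 1 (late full 1), the 2 mature bloom libraries that come from different rounds. The pair was set by the labels and holds 2 of the 6 RNA sequencing libraries of the series. The plants were Osmanthus fragrans var. semperflorens, a variety that flowers in repeated rounds, grown outdoors without treatment and collected in September. The other libraries are initial 1, full 1 and abscission 1 from round 1 and initial 2 from round 2. Replicates were pooled, 5 to a library, and whether these came from separate trees is not given in the sources used here. Each side of the comparison is therefore 1 library with no replicate check, no p-value is given, and round cannot be told apart from stage or collection date.

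Osmanthus petals owe their yellow to orange colour to carotenoids, plastid pigments built by the isoprenoid pathway. Cleavage of carotenoids by dioxygenases releases ionones, which are part of the flower's scent. A petal past full bloom moves from pigment and scent production towards senescence, in which cell contents are broken down and exported before the petal is shed. The table names assembled transcripts by ID, with no gene names and no sequences, so none of these genes was identified and the petal identity of the samples was not checked against markers. The account below is by abundance class and by the course of each transcript over the other libraries.

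Late full 1 held 25917466 counts and full 2 held 19240153, or 74.2% of that depth. Full 1, abscission 1 and initial 2 held 17826689 to 39119103 counts, and initial 1 held 107466, so initial 1 was used for the named transcripts alone. Of 96596 transcripts, 22417 had at least 50 counts over the pair and carried 98.8% of the counts of late full 1 and 98.9% of those of full 2. These are called tested, although no test of significance exists for them. Levels are counts scaled to equal library totals (CPM, by column total), and ratios are log2 of full 2 over late full 1 with a prior count of 2. CPM is not corrected for transcript length, so the abundance classes rank transcripts by their share of counts and not by molecules.

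The 2 libraries were centred alike and spread apart in their tails. The log2 ratio had a median of 0.02, a lower quartile of -0.57 and an upper quartile of 0.55, and 15990 transcripts (71.3%) lay within 2-fold. At least 2-fold apart were 28.7%, with 13.6% higher and 15.1% lower in full 2. At least 4-fold apart were 2322 transcripts (10.4%), of which 1009 (4.5%) were higher and 1313 (5.86%) lower in full 2. With TMM scaling, which matches the libraries on their typical transcript, 2314 were at least 4-fold apart (10.3%), 995 higher and 1319 lower (4.44% and 5.88%), and ratios moved by -0.01. At least 16-fold apart were 266 transcripts higher and 212 lower. In pooled tissue, fewer cells of a type and less RNA per cell cannot be told apart. At the count minimum, the 641 transcripts with 50 to 54 counts had a median log2 ratio of -0.34 and quartiles of -1.40 and 0.65. The 789 with 45 to 49 counts, just outside, had a median of -0.27 and quartiles of -1.39 and 0.69.

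**Figure D1:**
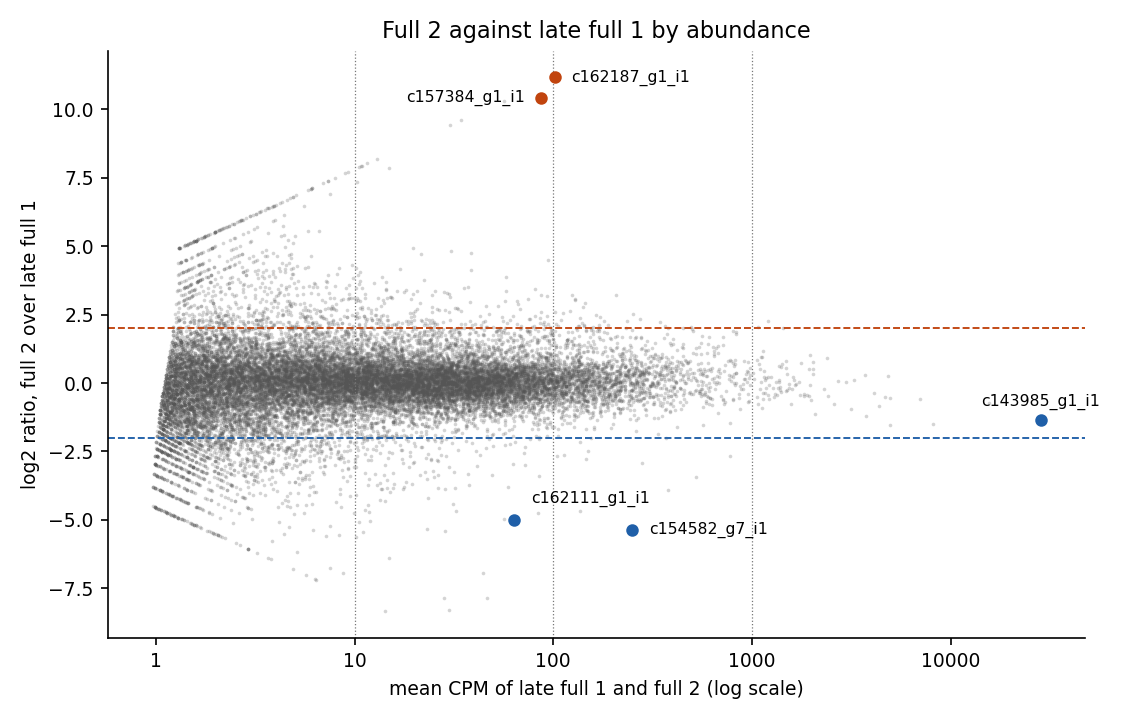
Log2 ratio of full 2 over late full 1 (vertical axis) against the mean CPM of the pair (horizontal axis, log scale) for the 22417 tested transcripts, 1 grey point each; dashed lines mark 4-fold, dotted lines the abundance classes, and coloured points the named transcripts. The interquartile range of the ratio is 1.52 under 10 CPM and 0.791 to 0.863 in the classes above, and c162187_g1_i1 and c157384_g1_i1 have the highest ratios of the tested transcripts.

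Most tested transcripts were of low abundance, and there the differences leaned towards lower levels in full 2. The class under 10 CPM held 11718 transcripts and 4.40% of the counts of late full 1 against 4.37% of full 2. In it 761 transcripts were at least 4-fold higher and 1156 lower, together 16.4% of the class against 10.4% of all tested. The direction is partly tied to depth, since a minimum on the summed counts lets more transcripts in through the deeper late full 1. With late full 1 thinned to the depth of full 2, 746 were higher and 873 lower in this class, so higher calls went from 39.7% to 46.1% of its calls.

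By column totals, higher calls outnumbered lower ones among transcripts of middle and high abundance. Of 8797 transcripts at 10 to 100 CPM, 209 were at least 4-fold higher in full 2 and 144 lower, or 4.01% in all. Of 1811 at 100 to 1000 CPM, 36 were higher and 13 lower, or 2.71%. After thinning these counts were 208 and 146, and 35 and 13. The median log2 ratio was 0.05 at 10 to 100 CPM and 0.09 at 100 to 1000 CPM. These medians rest on the scaling. An alternative added once the data had been seen used totals that leave out the 10 most abundant transcripts of each library. With it the medians were -0.05 and 0.0017. With those totals 185 transcripts were at least 4-fold higher and 192 lower at 10 to 100 CPM, so the direction of the lean turned there, and 30 were higher and 15 lower at 100 to 1000 CPM.

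The 91 transcripts at 1000 CPM or more carried 24.4% of late full 1 and 19.1% of full 2. Their median log2 ratio was -0.08, with 42 above and 49 below 0, so the smaller share in full 2 did not come with a general lowering of the class. At least 4-fold apart were 3 of them, all higher in full 2 and none lower. These 3 stood at 415 to 566 CPM in late full 1 and at 1716 to 2300 CPM in full 2. The classes below held more of full 2, with 44.5% at 100 to 1000 CPM against 40.4% of late full 1, and 31.0% at 10 to 100 CPM against 29.6%.

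**Figure D2:**
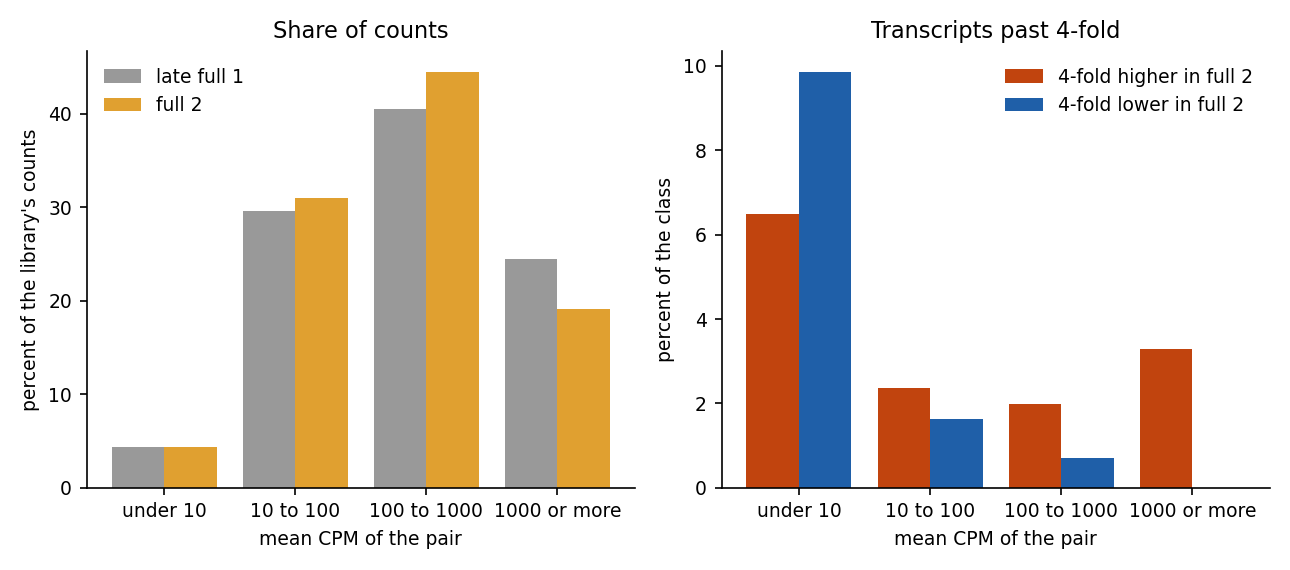
Left, percent of each library's counts (late full 1 grey, full 2 yellow) in the 4 classes of mean CPM; right, percent of each class at least 4-fold higher (red) or lower (blue) in full 2. The top class goes from 24.4% to 19.1% of counts, and by column totals lower calls outnumber higher ones under 10 CPM alone. With totals without the 10 most abundant transcripts of each library they also do at 10 to 100 CPM (192 against 185).

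A few transcripts dominated late full 1. Its 10 most abundant held 11.5% of its counts, and all 10 were lower in full 2, with log2 ratios of -1.55 to -0.37, where they held 5.69%. Ranking by late full 1 itself favours such a result. The 10 leading transcripts of full 2 held 6.17% of its counts, close to the 5.87% in full 1 and 6.64% in initial 2, while the 10 leading ones of abscission 1 held 17.3%. In full 2, 892 transcripts made up 50% of the counts, against 777 in late full 1 and 461 in abscission 1. The leaders were largely shared, with 7 of the top 10, 75 of the top 100 and 773 of the top 1000 in common.

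The most abundant transcript of both libraries was c143985_g1_i1, picked out after its level was seen. It stood at 40928 CPM in late full 1 and at 15931 CPM in full 2, a 2.57-fold lower level (95% exact interval on the counts 2.56 to 2.58, counting error only). Elsewhere it stood at 29898 CPM in initial 1, 18833 in full 1, 30458 in abscission 1 and 28216 in initial 2. Full 2 thus had its lowest level and late full 1 its highest of the 6 libraries, with full 1 next above full 2.

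The counts that full 2 lacked against late full 1 were concentrated in few transcripts, and those it had in excess were spread over many. Moving 20.7% of the counts from some transcripts to others would turn 1 library's profile into the other. Of the summed deficit, c143985_g1_i1 alone held 12.1%, the 4 largest entries 22.0% and the 10 largest 28.6%. Of the summed excess, the largest entry held 0.839%, the 4 largest 2.95% and the 10 largest 5.87%. It took 153 transcripts to reach 50% of the deficit and 447 to reach 50% of the excess. The same measure gave 22.0% for full 2 and full 1, 26.8% for full 2 and initial 2, and 30.7% for full 2 and abscission 1, so late full 1 was the nearest of the 4 deep libraries to full 2 by this count. These values share full 2 and have no error.

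**Figure D3:**
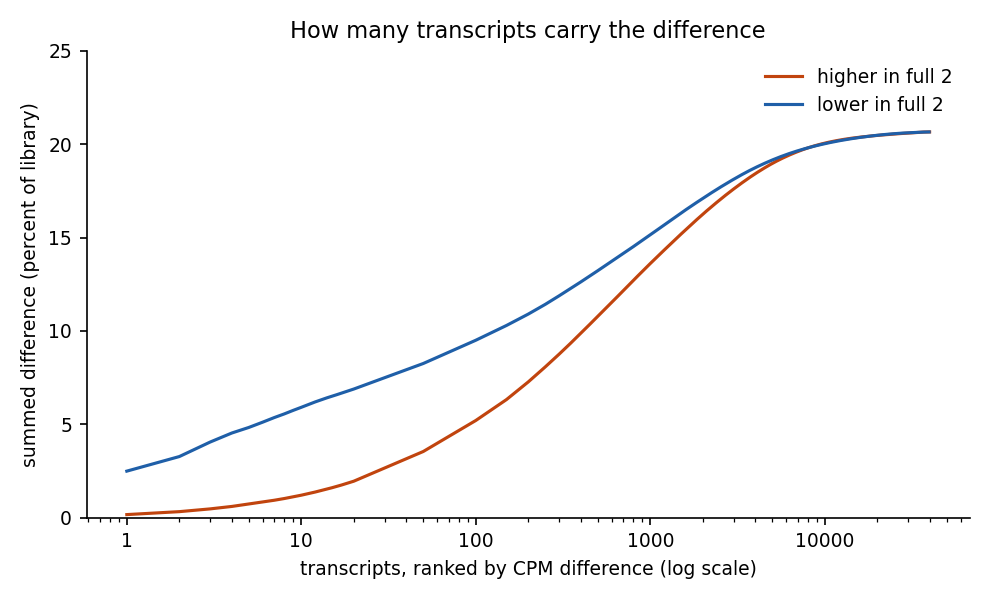
Summed CPM difference between full 2 and late full 1, in percent of a library (vertical axis), over transcripts ranked by the size of their difference (horizontal axis, log scale), for transcripts higher (red) and lower (blue) in full 2. Both curves end at 20.7%, and the blue one starts higher because 10 transcripts hold 28.6% of the deficit.

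Of the 4 transcripts named here by their ratios, the 2 higher in full 2 were nearly absent from late full 1. The 2 lower ones kept 227 and 72 counts in full 2. Among transcripts with at least 100 CPM in the higher library, 71 of 2297 were at least 4-fold higher in full 2 (3.09%) and 25 lower (1.09%). The 2 highest and 2 lowest ratios of this set are described here, and their sizes are the reason they were chosen. Transcript c162187_g1_i1 had 3915 counts in full 2 (203 CPM) and 0 in late full 1, where 3 counts are 0.116 CPM. It was at least 1758-fold higher in full 2 against that floor, or 1746-fold with TMM. It had 120 counts in initial 2 (3.07 CPM), 0 in initial 1, 0 in full 1 and 1 in abscission 1. Its counts thus lay almost wholly in round 2 and mainly in full bloom. The other transcript of its assembly component (transcripts that the ID groups together) had 1315 counts in full 2, 27 in initial 2 and 0 in late full 1.

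Transcript c157384_g1_i1 followed the same course. It stood at 174 CPM in full 2 on 3355 counts and at 0.0386 CPM in late full 1 on 1 count. By CPM without the prior count this is a 4519-fold higher level, with an exact interval of 811 to 178558. With the prior count its log2 ratio was 10.4. A ratio on 1 count cannot be ranked against the bound given for c162187_g1_i1. It had 216 counts in initial 2 (5.52 CPM), 8 in abscission 1 and 0 in full 1 and initial 1. For both transcripts the level in initial 1 is not informative, since 3 counts there are 27.9 CPM.

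The 2 lowest ratios belonged to transcripts with unlike courses. Transcript c154582_g7_i1 stood at 487 CPM in late full 1 and at 11.8 CPM in full 2, 41.3-fold lower (exact interval 36.2 to 47.3). Within round 1 it stood at 2.32 CPM in full 1 and 1011 CPM in abscission 1, with 0 counts in initial 1, and in initial 2 it stood at 0.537 CPM. Among the deep libraries of each round its level was higher at each later stage, and full 2 lay between full 1 and late full 1. The other 4 transcripts of its component had 79 counts in late full 1, 137 in full 2 and 504 in initial 2. With the component summed, the level in full 2 was 25.9-fold lower, and initial 2 stood at 13.4 CPM, near the 18.9 CPM of full 2. Transcript c162111_g1_i1 stood at 123 CPM in late full 1 and at 3.74 CPM in full 2, 33.0-fold lower (exact interval 26.1 to 42.2). It stood at 112 CPM in full 1, 89.8 in initial 2 and 65.1 in initial 1 (7 counts), and at 9.48 in abscission 1. Here full 2 and abscission 1 were the 2 low libraries and the other 4 were high. The other transcript of its component had 516 counts in late full 1, 6 in full 2 and 479 in initial 2.

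**Figure D4:**
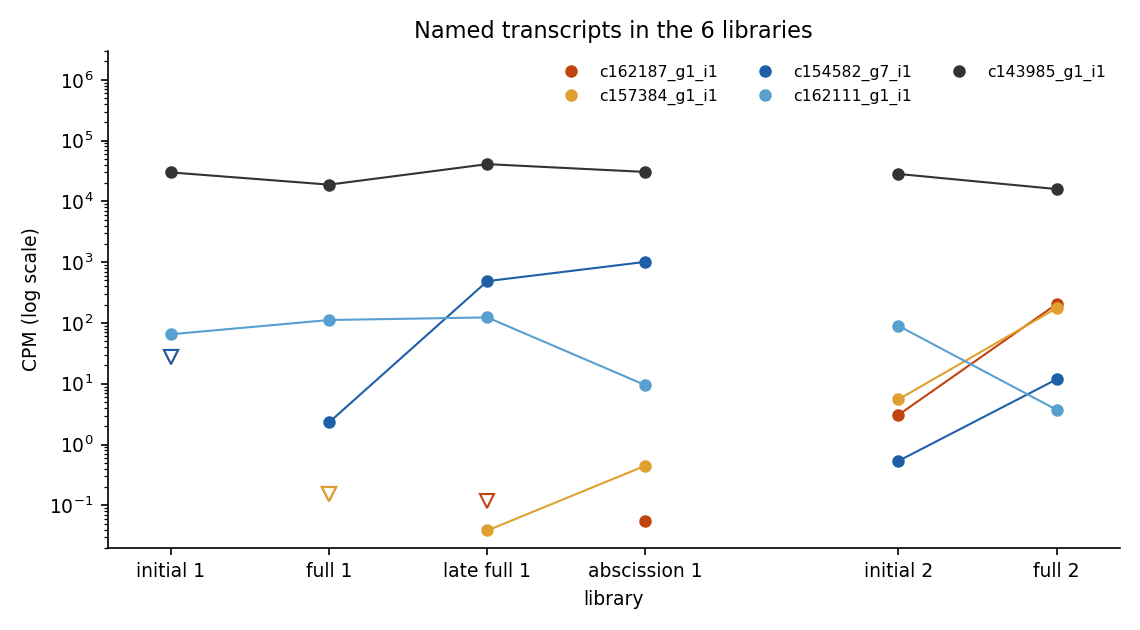
CPM (log scale) of the 5 named transcripts in the 6 libraries, with round 1 at left and round 2 at right; open triangles mark 0 counts, drawn at the level of 3 counts, where transcripts can overlie each other, and lines join libraries of 1 round. In full 2, c162187_g1_i1 and c157384_g1_i1 reach 203 and 174 CPM, while in round 1 neither exceeds 0.449 CPM in a deep library.

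Such near-absence was not confined to the 2 named transcripts higher in full 2. Where the pair averaged 10 CPM or more, 12 transcripts had a log2 ratio of 7 or more and 4 of -7 or less, a bound set with these values in view. The 12 higher ones had 396 to 3915 counts in full 2 and 0 or 1 in late full 1, and came from 10 components. Of these, 9 also had 0 counts in full 1 and at most 8 in abscission 1, while all 9 had 1 to 216 counts in initial 2, the deepest library. The rest of the 12 reached up to 1098 counts in full 1, 189 in abscission 1 and 2310 in initial 2, so they were not confined to round 2. The 4 lower ones had 740 to 2406 counts in late full 1 and 0 to 6 in full 2. They had 278 to 1230 counts in initial 2 but 0 to 136 in full 1 and 0 to 18 in abscission 1. By CPM all 4 were higher in initial 2 than in full 1. Initial 2 was the deepest library, so these raw counts do not place its levels near those of late full 1.

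Over all transcripts, 114 had at least 50 counts in full 2 and 0 in late full 1, and 84 had at least 50 in late full 1 and 0 in full 2. The 114 had a median of 89 counts and summed to 1159 CPM of full 2, and 4 of them had at least 1000 counts. They were at least 22.5-fold to at least 1758-fold higher against a floor of 3 counts. Of the 114, 83 had a count in initial 2, 49 in abscission 1 and 19 in full 1, and 38 had counts in initial 2 but none in full 1 or abscission 1. The 84 had a median of 71 counts and summed to 324 CPM of late full 1, with 740 counts at most. They were at least 12.4-fold to at least 183-fold lower in full 2. Of the 84, 58 had a count in initial 2, 55 in full 1 and 42 in abscission 1, and 5 had counts in initial 2 but none in full 1 or abscission 1. Initial 2 was the deepest library, which raises the chance of a count there for both sets. Of all 96596 transcripts, 69728 had a count in initial 2, 57145 in full 1 and 56792 in abscission 1. The shares with a count in initial 2 were 72.8% of the 114 and 69.0% of the 84. All transcripts are not a like baseline for them, since most of the 96596 had under 50 counts over the pair. Of the 22417 tested transcripts, 21235 had at least 50 counts over initial 2 and full 1.

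The 3 deep libraries outside the pair show where the differing transcripts stood during the rest of flowering. The 1313 transcripts lower in full 2 had median levels of 2.63 CPM in full 1, 3.70 in late full 1, 0.729 in abscission 1, 2.45 in initial 2 and 0.416 in full 2. Full 2 and abscission 1 were thus the low libraries for this group, and the other 3 lay close together. In abscission 1, 72.7% of them lay between the 2 libraries of the pair, 23.3% below both and 3.96% above both. Over all tested transcripts these shares were 34.1%, 47.4% and 18.4%. A pair chosen to be 4-fold apart leaves more room between its levels. The group also lay mostly between the pair in full 1 (64.6%) and initial 2 (69.5%). The 1009 transcripts higher in full 2 had medians of 1.11 CPM in full 1, 0.656 in late full 1, 1.80 in abscission 1, 1.58 in initial 2 and 6.50 in full 2. Full 2 stood apart from all 4 others in this group. Since the pair chose both groups, their levels in full 2 and late full 1 are a description.

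**Figure D5:**
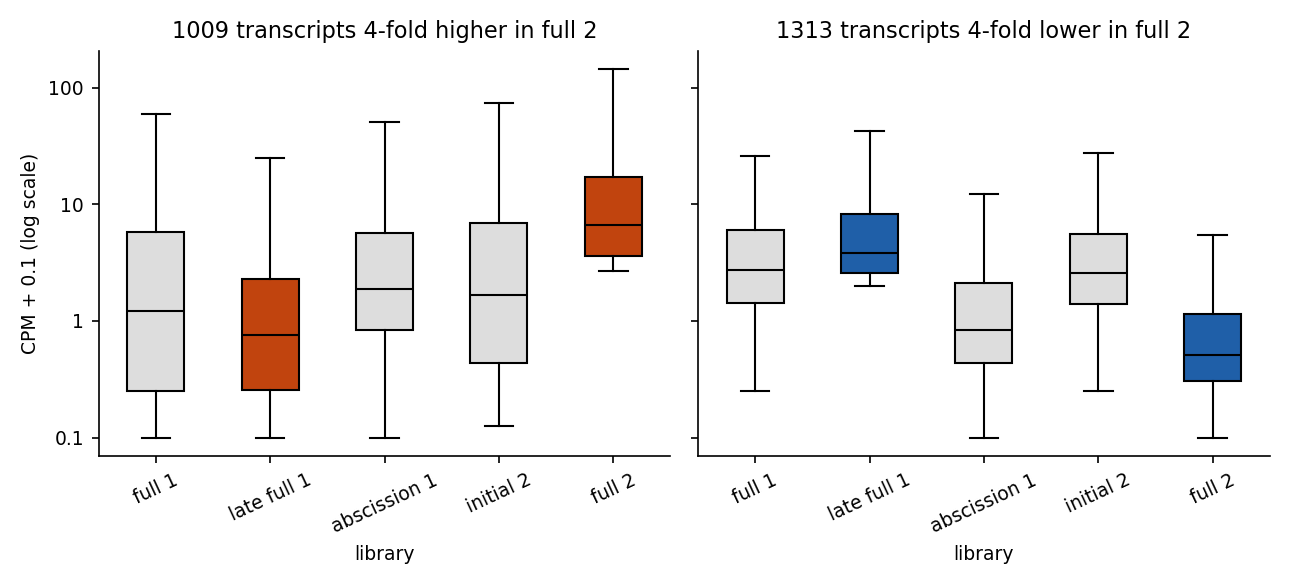
CPM plus 0.1 (log scale) in the 5 deep libraries for the 1009 transcripts at least 4-fold higher (left) and the 1313 lower (right) in full 2; boxes span the quartiles with the median as a line, whiskers the 5th to 95th percentile of transcripts, and coloured boxes are the pair that chose them. For the lower group the medians of abscission 1 (0.729 CPM) and full 2 (0.416 CPM) lie below those of the other libraries.

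Abscission 1 against full 1 shares no library with the pair and spans the end of round 1. Of the 1313 transcripts lower in full 2, 863 had at least 50 counts in those 2 libraries. A weak transcript passes that minimum more easily through the library where it is higher, so the shares describe only those that passed. Of the 863, 421 (48.8%) were at least 4-fold lower in abscission 1 than in full 1. Over all tested transcripts this share was 10.9%, and under 10 CPM it was 49.9% of the lower group against 14.4% of the class. In the other direction, 5.68% of the lower group were at least 4-fold higher in abscission 1, against 5.52% of all. At 10 to 100 CPM, 9.35% of the group were higher and 44.6% lower, against 4.53% and 7.67% of the class. With 100 CPM or more in the higher library, by column totals 6 of 25 were higher (24.0%) and 10 lower (40.0%). Over all such transcripts these shares were 6.28% and 8.63%. With TMM the direction turned for these 25, with 7 higher and 4 lower. Over all 2294 such transcripts with at least 50 counts in those libraries, TMM gave 212 higher and 90 lower. Of the transcripts higher in full 2, by column totals 19.3% were at least 4-fold higher and 18.1% lower in abscission 1, against 5.52% and 10.9% of all. Of all 2214 transcripts lower in abscission 1 than in full 1, 19.0% were in the lower group, which made up 4.26% of the 20270 tested transcripts with at least 50 counts in those libraries. Of the 1119 higher there, 9.56% were in the higher group, which made up 2.73%. This outside pair depends on scaling, with a median log2 ratio of -0.52 by totals and 0.0034 by TMM. With TMM the shares were 32.7% of the lower group against 5.84% of all, and for the higher group 27.1% higher and 11.9% lower in abscission 1 against 7.95% and 5.84% of all.

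Initial 2 against full 1 also shares no library with the pair and sets round 2 against round 1, although at different stages. Of the 1009 transcripts higher in full 2, 628 had at least 50 counts in those 2 libraries. Initial 2 was the deeper of them, so weak transcripts pass more easily when higher there. Of the 628, 113 (18.0%) were at least 4-fold higher in initial 2 than in full 1, against 1.88% of all tested. Under 10 CPM the shares were 23.5% against 2.98%. At 10 to 100 CPM the higher group was split, with 20 of 202 (9.90%) higher and 17 (8.42%) lower in initial 2, against 0.843% and 1.73% of the class. At least 4-fold lower in initial 2 were 5.41% of the higher group, against 1.70% of all. Of the lower group, 3.62% were higher and 2.74% lower in initial 2. Of the 399 transcripts higher in initial 2 than in full 1, 28.3% were in the higher group, which made up 2.96% of the 21235 tested transcripts with at least 50 counts in those libraries. Of the 360 lower there, 8.61% were in the lower group, which made up 5.34%. With TMM, 17.0% of the higher group were higher in initial 2 against 1.79% of all, and 5.41% lower against 1.78%.

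Summing the transcripts of an assembly component took away a larger part of the lower calls than of the higher ones. Of the 1313 lower transcripts, 787 (59.9%) shared a component with another transcript of the table, as did 464 (46.0%) of the 1009 higher ones and 49.1% of all tested. With counts summed over the component, 331 of the 787 came within 2-fold and 306 were still at least 4-fold lower. For the 464 higher ones these numbers were 79 and 304. At 10 to 100 CPM, 50 of 98 lower transcripts in shared components came within 2-fold, against 30 of 105 higher ones. How the counting divided reads among near-identical transcripts is not given in the sources used here, so such levels are uncertain. Calls in both directions within 1 component occurred in 13 of 3436 components with 2 or more tested transcripts.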

How the data were processed

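Petal messenger RNA was sequenced from 6 pooled libraries, of which late full 1 and full 2 form the comparison. The authors deposited 1 table of estimated counts for assembled transcripts, unscaled, with 36 to 855 decimal values a column and whole numbers otherwise, from which the unit was read. The assembly was de novo, per the series title, and the submitters' processing notes name CASAVA 1.7. The sources used here give no assembler, aligner or counter. Each column matched 1 sample.

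Estimated counts were rounded. CPM used column totals. Ratios used a prior count of 2, a minimum of 50 counts over the pair and a 4-fold threshold, with no test, since 1 library stands on each side. Fold values and intervals printed for named transcripts and their components left the prior count out. TMM factors came from edgeR 4.0.16 and size factors from DESeq2 1.42.0, in R 4.3.3, on the tested transcripts. SciPy 1.17.1 gave the intervals, matplotlib 3.10.9 the figures, and NumPy 2.4.6 and pandas 2.3.3 under Python 3.11.15 the other steps. The ratio and its calls were checked on simulated data with counting error only. Changes were placed there in transcripts well above the count minimum. The check thus does not cover changes in weak transcripts or the spread between pools. Exact 95% intervals are Clopper-Pearson on the pair of counts and, like the floor of 3 counts, leave out all but counting error, and even there reads are not independent molecules. Named are the 2 highest and 2 lowest ratios among transcripts with at least 100 CPM in the higher library. Members, classes and lists were chosen with earlier results of these data known. Alternatives were TMM, DESeq2 size factors, no filter (1 count), minimums of 10 and of 200, and a smaller prior count (0.5). Further ones were thinning of late full 1 to the depth of full 2, sums by component, and totals without the 10 most abundant transcripts of each library.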

Additional observations from a re-analysis of the deposited data

How the results depend on the processing

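The count minimum moved the number of transcripts at least 4-fold apart most. A minimum of 10 counts gave 7392 (3015 higher, 4377 lower), no filter gave 9768 (4165 and 5603), and a minimum of 200 counts gave 756 (390 and 366), where fewer or more transcripts enter by construction. Lower transcripts outnumbered higher ones under every setting except the minimum of 200. The scalings, the prior count, thinning and component sums kept the 3 counts within 1.5 times. Thinning gave 992 higher and 1032 lower, and component sums gave 873 and 890.

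The median log2 ratio lay near 0 and its sign was not settled. It was 0.0020 with DESeq2 size factors, -0.11 with a minimum of 10, 0.048 with a minimum of 200 and 0.041 with thinning. With totals without the 10 most abundant transcripts of each library it was -0.072. Under 10 CPM the class median was -0.04, and -0.24 with a minimum of 10, 0.028 with a minimum of 200, 0.022 with thinning and -0.13 without the 10 most abundant. At 10 to 100 CPM it was 0.031 with DESeq2 size factors, 0.018 with component sums and -0.048 without the 10 most abundant, and at 100 to 1000 CPM it was 0.0017 in that last setting. There, 1 transcript in place of 3 was at least 4-fold higher at 1000 CPM or more. Component sums lowered the lower calls at 10 to 100 CPM from 144 to 72.

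With component sums, the 10 leading entries held 11.6% of late full 1 and 6.21% of full 2, and the 100 leading ones 26.6% and 21.3%. The 5 named transcripts kept their direction and side of the threshold under every setting run on single transcripts. No paired analysis was possible because each group is 1 library. Depth limits statements on transcripts under 3 counts, and the spread between pools was not measured.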
